A study of Mus musculus with 6 samples.

Results

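The genes examined here encode the glycolytic enzymes that are not particular to hepatocytes and that lead from glucose 6-phosphate to lactate: Gpi1, Pfkp, Aldoa, Tpi1, Gapdh, Pgk1, Pgam1, Eno1, Pkm and Ldha. They were taken by symbol from the deposited count tables, where all 10 were found among 24421 gene symbols, and 9 held enough reads to test. Liver RNA was sequenced from Townes sickle cell mice aged 7 months, with 3 libraries from SS mice and 3 from AS mice. Both genotypes carry the human alpha-globin allele Hbatm1(HBA)Tow in place of the mouse genes. The SS mice carry the sickle allele Hbbtm2(HBG1,HBB*)Tow alone, and the AS mice, which served as the controls, carry it with the normal human allele Hbbtm3(HBG1,HBB)Tow. Human globin genes replace the mouse genes from the germ line in this model, so no cell type was targeted. The labels do not say whether the replicates are separate animals, and p-values therefore reflect the library-to-library spread alone, part of which may be technical.

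Glycolysis splits glucose into pyruvate and, through lactate dehydrogenase, lactate. Hepatocytes also run the pathway backwards to make glucose, and use their own isozymes at several steps, among them liver phosphofructokinase (Pfkl) and liver pyruvate kinase (Pklr). Red cells use a form of pyruvate kinase that is also made from Pklr. Macrophages, fibroblasts and dividing cells rely on the other isozymes, among them platelet phosphofructokinase (Pfkp), aldolase A (Aldoa) and the muscle-type pyruvate kinase (Pkm). Several of these genes are known targets of the hypoxia-inducible factor HIF-1 in mammalian cells.

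Libraries held 6670011 to 13700194 gene reads. CPM values are reads scaled to each library's total after adjustment by its TMM factor, and are not shares of gene reads. All genes tested summed to 826794 to 991962 CPM in SS libraries and 1034260 to 1199610 CPM in AS libraries. The tissue was checked against 7 hepatocyte markers, among them albumin, apolipoprotein A-I and transthyretin. These markers summed to 74630.3 to 101958 CPM in SS libraries and 90125 to 131275 CPM in AS libraries. One of the 7, Ass1, a urea cycle enzyme, was nearly absent, with 8 reads in SS libraries and 6 in AS libraries. SS replicate 1 stood apart in its records not counted to a gene, at 78.5% against 66.6% to 69.7% in the other libraries. These records include those with several alignments. The closest pair was AS replicates 2 and 3, whose counts still differed by more than sampling noise (chi-square 4.05 per gene, and 29.2 to 170 in the other pairs). AS replicate 1 and SS replicate 3 were the pair farthest apart.

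Ldha and Pgk1 were among the members with the highest levels per length of exon, and both are textbook HIF-1 targets, so the bases before their starts are shown. The HIF-1 core ACGTG was searched on both strands in the 250 bases before each annotated start, and its places are in capitals. CACGTG holds it on both strands at once and counts as 1 place.
Ldha (GRCm38.p6, chr7:46845554-46845803, plus strand): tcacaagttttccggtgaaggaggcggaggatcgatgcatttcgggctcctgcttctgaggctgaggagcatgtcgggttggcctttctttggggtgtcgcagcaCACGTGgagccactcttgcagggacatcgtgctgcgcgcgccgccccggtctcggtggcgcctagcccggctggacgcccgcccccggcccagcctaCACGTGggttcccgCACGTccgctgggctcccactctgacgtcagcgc
Pgk1 (GRCm38.p6, chrX:106186850-106187099, plus strand): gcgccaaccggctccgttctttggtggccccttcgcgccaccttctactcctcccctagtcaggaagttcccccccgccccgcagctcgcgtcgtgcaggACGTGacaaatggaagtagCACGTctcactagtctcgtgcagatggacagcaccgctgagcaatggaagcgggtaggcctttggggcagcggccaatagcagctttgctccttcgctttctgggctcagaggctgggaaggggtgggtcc
The windows come from RefSeq. The Ldha window shown held the core at 3 places and the Pgk1 window at 2. A second annotated start of Ldha has a window of its own, which held 0. It stood in at least 1 window of 5 of the 10 members (Aldoa, Pgk1, Pgam1, Pkm and Ldha) and in 18.5% of the 26994 genes with a window. A match of letters is a description of the sequence and not a site.

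No glycolytic enzyme gene was called different between SS and AS liver. The test was edgeR's quasi-likelihood F-test, with a call at a Benjamini-Hochberg adjusted p under 0.05 over all 12622 genes tested. That gave 0 of 9 members, beside 0.967% of all genes (0.911% higher and 0.0555% lower). DESeq2 also called 0 of 9, beside 3.59% of all genes. At an unadjusted p under 0.05, 1 member was higher in SS (Pkm) and 0 were lower, beside 12.7% of all genes (9.12% higher). The median log2 change of the 9 was 0.04, beside 0.08 for all genes tested, with 5 fitted above 0 and 4 below. Groups did not overlap in 1 of the 9 (Pkm, SS above AS), beside 21.1% of all genes (12.1% with SS above and 9.04% with SS below). The members' summed level was 1978 to 2676 CPM in SS libraries and 1890.0 to 2711 CPM in AS libraries.

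**Figure D1:**
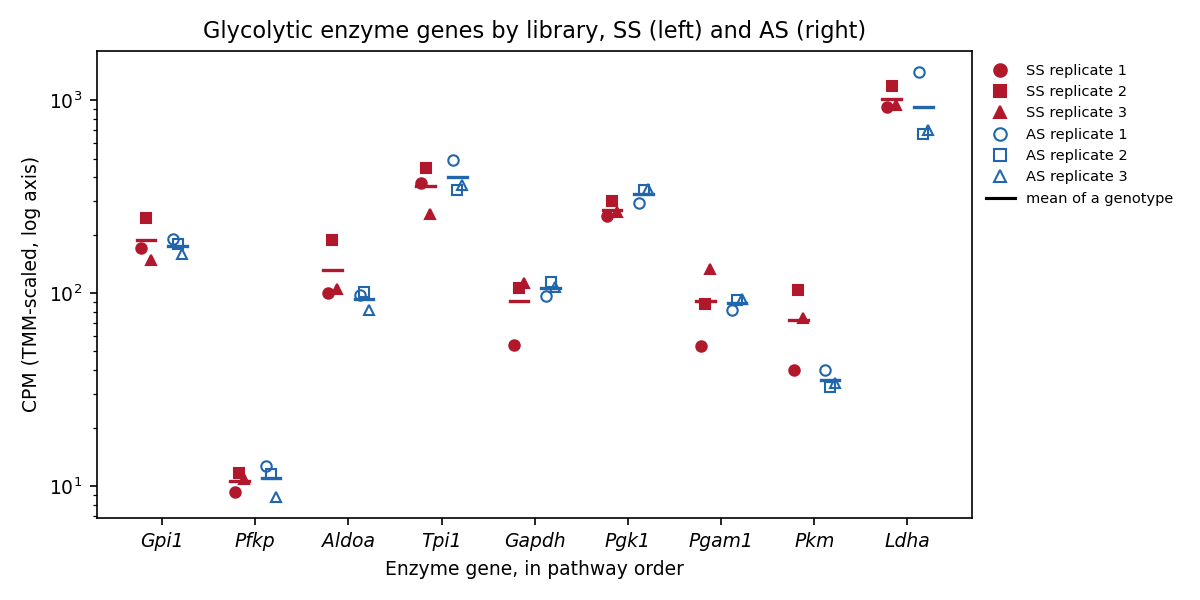
Level of the 9 tested enzyme genes in each library, in CPM after TMM scaling on a log axis, with SS libraries left of AS libraries, 1 point per library and a line at the mean of 3. The groups overlap in every gene but Pkm, where SS replicate 1 and AS replicate 1 both stand at 40.0 CPM and the other SS libraries are higher.

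Pkm, which makes pyruvate and ATP in the last step of glycolysis, had the largest fitted difference of the 9. It stood at 40.0, 104 and 74.2 CPM in SS replicates 1, 2 and 3, against 40.0, 32.5 and 34.4 CPM in AS replicates 1, 2 and 3. SS replicates 2 and 3 were above all AS libraries, while SS replicate 1 was level with AS replicate 1 after TMM scaling. As a share of gene reads Pkm was higher in SS replicate 1 (303 of 6971289) than in AS replicate 1 (347 of 10424592). The means were 72.8 ± 32.2 CPM in SS and 35.6 ± 3.86 CPM in AS (SD, n = 3 each). The fitted difference was 1.03 on the log2 scale (SE 0.330, 95% interval 0.30 to 1.76) and missed the threshold (edgeR adjusted p = 0.224). Without SS replicate 2 it was 0.67, and without SS replicate 1, the library with the largest share of records not counted to a gene, 1.32 (edgeR adjusted p = 0.0811). Reads per gene do not separate the M1 and M2 splice forms of this enzyme. Pkm lies on chromosome 9 (59656368 to 59679375, mm10).

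The summed macrophage markers had the same order among SS libraries as Pkm, with SS replicate 2 highest and SS replicate 1 lowest. The summed hepatocyte and lymphocyte markers had that order too, as did Bpgm, so the order was not particular to macrophages. The 8 markers of monocytes and recruited macrophages summed to 190.0, 564 and 415 CPM in SS replicates 1, 2 and 3, against 217, 152 and 152 CPM in AS replicates 1, 2 and 3. Most of that sum was Lyz2, which was not called, at 137, 460 and 295 CPM in SS replicates 1, 2 and 3. Of those 8, 4 rose (Ccr2, Gpnmb, Trem2 and Mmp12) and 0 fell, with a median log2 change of 1.75. Over all genes tested 0.911% rose and 0.0555% fell. The 4 called markers did not have the order of Pkm. Gpnmb and Mmp12 were highest in SS replicate 3, Ccr2 was highest in SS replicate 1, and Trem2 was lowest in SS replicate 3. Markers of the liver's resident macrophages, Kupffer cells (7 genes), summed to 734, 1875 and 1221 CPM in SS and to 763, 653 and 603 CPM in AS, with 0 called and a median of 0.92. After TMM scaling SS replicate 1 lay among or next to the AS libraries in both sums, and SS replicate 2 was highest, as for Pkm. The place of SS replicate 1 against AS libraries depends on that scaling, whose factor was higher in every SS library than in any AS library. The 4 called markers, in contrast, were above all AS libraries in SS replicate 1 too. Gpnmb stood there at 11.3 CPM, against 0.161 to 0.576 CPM in AS, and Ccr2 at 8.31 CPM, against 1.38 to 2.04 CPM. The part of these cells in the Pkm values was not tested. In whole liver, more cells of a type and more RNA per cell cannot be told apart.

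**Figure D2:**
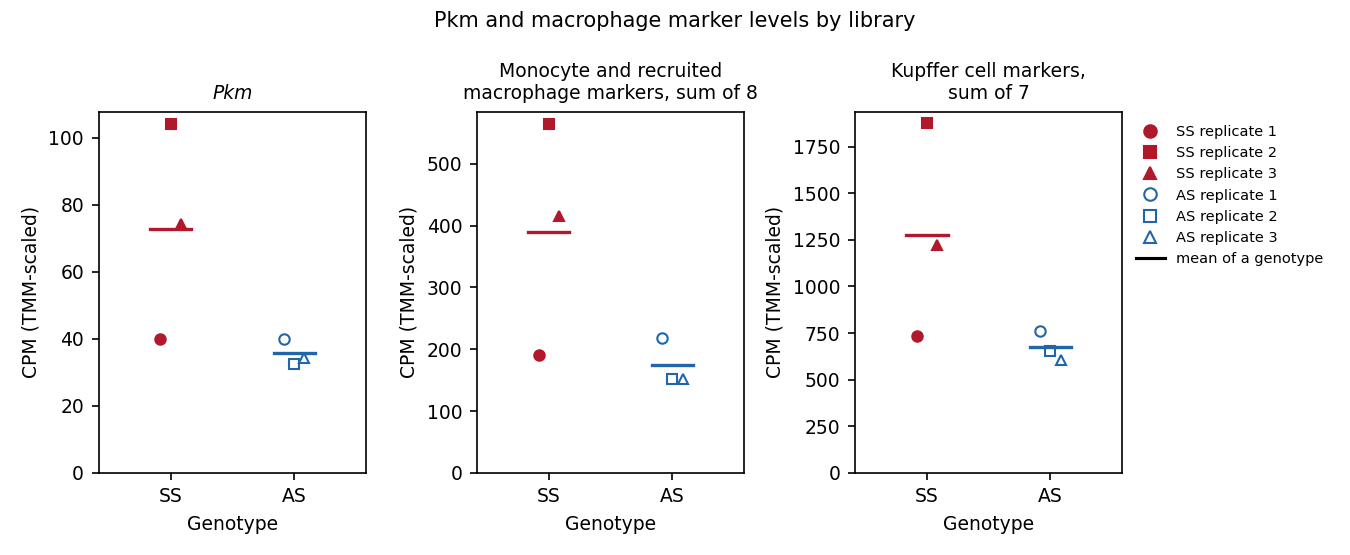
Pkm level (left), summed level of 8 monocyte and recruited macrophage markers (middle) and of 7 Kupffer cell markers (right), in CPM after TMM scaling, from 0. SS is left of AS, with 1 point per library and a line at the mean of 3. SS replicate 2 is highest in all 3 panels (104, 564 and 1875 CPM), and SS replicate 1 lies near the AS libraries.

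Genes that mark several other cell types were also called, and over all genes tested 0.911% were called higher and 0.0555% lower. The 8 dividing cell markers summed to 84.1 to 157 CPM in SS and 8.83 to 12.1 CPM in AS, with 6 called higher and 0 lower. The 7 erythroid markers found in the tables summed to 245 to 482 CPM in SS and 45.5 to 62.8 CPM in AS, with 3 called higher and 0 lower. Of the transcription factors in that list, neither of which was called, Gata1 had 1.06, 1.38 and 1.96 CPM in SS and was at 0 in all AS libraries, while Klf1 had 2.24, 4.42 and 3.83 CPM in SS and 3.11, 8.05 and 8.10 CPM in AS. The 7 neutrophil markers summed to 22.0 to 84.6 CPM in SS and 3.60 to 6.56 CPM in AS, with 2 called higher, and Elane and Ltf were at 0 in all AS libraries. The 7 stellate cell and fibroblast markers summed to 428 to 632 CPM in SS and 297 to 373 CPM in AS, with 2 called higher. Platelet markers (5 genes) summed to 12.3 to 23.3 CPM in SS and 6.68 to 9.08 CPM in AS, with 0 called. Lymphocyte markers (7 genes) summed to 8.18 to 20.7 CPM in SS and 4.82 to 6.28 CPM in AS, and cholangiocyte markers (6 genes) to 117 to 249 CPM in SS and 86.4 to 105 CPM in AS, with 0 called in either list. Most of the cholangiocyte sum was Spp1, at 102 to 219 CPM in SS and 69.8 to 95.7 CPM in AS. The 6 sinusoidal endothelial markers overlapped between genotypes, at 195 to 345 CPM in SS and 204 to 291 CPM in AS. Skeletal muscle, whose fibres are rich in aldolase A and Pkm, left little trace: its 7 markers summed to 0.469 to 5.94 CPM in SS and 0.736 to 1.50 CPM in AS, and Acta1, Myh4, Tnnt3 and Tnnc2 were at 0 in all AS libraries. The part of these cell types in the enzyme levels was not tested.

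The enzymes of the sugar phosphate steps did not pass the test. Gpi1, which turns glucose 6-phosphate into fructose 6-phosphate, had 173, 246 and 149 CPM in SS and 192, 179.6 and 159 CPM in AS. SS replicate 2 was the highest library and SS replicate 3 the lowest, and the groups overlapped (log2 change 0.10, SE 0.267, edgeR adjusted p = 0.899). Pfkp, a phosphofructokinase subunit abundant in platelets, had the lowest level per kilobase of exon among the 9. Its level was 9.37 to 11.7 CPM in SS and 8.83 to 12.7 CPM in AS, with a fitted log2 difference of -0.04 (SE 0.304, edgeR adjusted p = 0.966).

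Aldoa, the aldolase of muscle, red cells and most tissues, had 101, 189 and 105 CPM in SS, against 98.0, 102 and 82.2 CPM in AS. SS replicates 1 and 3 lay beside AS replicates 1 and 2, and SS replicate 2 stood alone above the rest. The means were 131 ± 49.6 CPM in SS and 93.9 ± 10.3 CPM in AS (SD, n = 3 each), a fitted log2 difference of 0.49 (SE 0.291, interval -0.16 to 1.13), and missed the threshold in edgeR (adjusted p = 0.508). That difference was 0.12 without SS replicate 2. Aldoa lies on chromosome 7 (126795234 to 126800751, mm10), where Fam57b overlaps it on the other strand. Tpi1, which interconverts the triose phosphates, had 371, 446 and 258 CPM in SS and 492, 344 and 365 CPM in AS. Its highest library was AS replicate 1 and its lowest SS replicate 3, and the fitted log2 difference was -0.16 (SE 0.290, edgeR adjusted p = 0.841).

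Among the enzymes that follow the triose phosphates, Gapdh, Pgk1 and Pgam1 did not pass the test either. Gapdh, which makes NADH and is widely used as a reference gene, had 53.8, 107 and 113 CPM in SS and 97.1, 115 and 108 CPM in AS. SS replicate 1 was the one library below the rest, and the log2 change was -0.23 (SE 0.297, edgeR adjusted p = 0.768), or 0.04 without that library. Pgk1, the X-linked kinase that makes the first ATP of the pathway, had 252, 301 and 263 CPM in SS and 293, 342 and 348 CPM in AS. SS replicate 2 lay just above AS replicate 1, and the other SS libraries were below all AS libraries. Pgk1 varied least of the 9 within SS, with a coefficient of variation of 9.55% in SS and 9.12% in AS, and it differed by -0.27 on the log2 scale (SE 0.242, interval -0.80 to 0.26, adjusted p = 0.662 in edgeR). Pgam1, a phosphoglycerate mutase, had 53.0, 88.3 and 133 CPM in SS and 81.5, 92.8 and 92.9 CPM in AS. The SS libraries lay on both sides of the AS libraries, with a coefficient of variation of 44.0% in SS and 7.33% in AS and a fitted log2 difference of 0.04 (SE 0.318, edgeR adjusted p = 0.970).

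Eno1, the widely expressed enolase, could not be compared: it had 1 read in the SS libraries (in SS replicate 3) and 1 read in the AS libraries (in AS replicate 3). Of the 50-base windows in its annotated coding transcripts, 49.5% also occur in transcripts of other genes, 48.4% in the retrogene Eno1b alone. The gene annotation used in counting is not given. Pgk1 and Gapdh, with larger shared shares, had 252 to 348 CPM and 53.8 to 115 CPM over all libraries. The near absence of reads was not traced to a cause and is not read here as a level of enolase RNA. Eno1b, named after its values were seen, was counted at 37.1, 10.7 and 35.8 CPM in SS and 48.1, 56.9 and 60.1 CPM in AS. After TMM scaling all SS libraries were below all AS libraries, as in 9.04% of all genes tested. As a share of gene reads SS replicate 3 was above AS replicate 1 (457 of 10589220 and 418 of 10424592). The difference missed the threshold (log2 change -0.99, SE 0.406, edgeR adjusted p = 0.355), and it was -0.61 on the log2 scale without SS replicate 2. Since 85.2% of the windows of Eno1b occur in other genes, its reads cannot be assigned to the retrogene with confidence.

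Other members share sequence with copies too, and their levels may be understated by counting that drops reads with several alignments. The share of 50-base windows found in other annotated genes was 68.0% for Pgk1, 58.4% for Gapdh, 41.5% for Pgam1, 23.7% for Pkm, 18.6% for Gpi1, 10.4% for Ldha, 8.46% for Aldoa and 6.83% for Tpi1, and 0 for Pfkp. Gapdh windows occurred in 218 other genes. The share was 0 for Pklr, so its reads and those of Pkm are not equally exposed to such losses. Records with several alignments made up 14.7% to 16.2% of records in SS libraries and 18.4% to 22.8% in AS libraries, so the genotypes did not overlap in that share, and its part in the values of these genes was not tested.

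Ldha, which turns pyruvate into lactate and restores NAD, had the highest level per kilobase of exon. It stood at 926, 1184 and 946 CPM in SS and 1405, 672 and 702 CPM in AS. AS replicate 1 was the highest library of all, and AS replicates 2 and 3 were below every SS library. The means were 1018 ± 143 CPM in SS and 926 ± 415 CPM in AS (SD, n = 3 each), and the fitted log2 difference was 0.14 (SE 0.332, interval -0.60 to 0.87, adjusted p = 0.883 in edgeR). Without AS replicate 1 it was 0.56, and without the most distant pair of libraries, AS replicate 1 and SS replicate 3, it was 0.62 (edgeR adjusted p = 0.0516, where 5.21% of all genes were called). With AS replicates 2 and 3 summed to 1 library it was -0.05. Ldha lies on chromosome 7 (46841475 to 46855627, mm10).

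**Figure D3:**
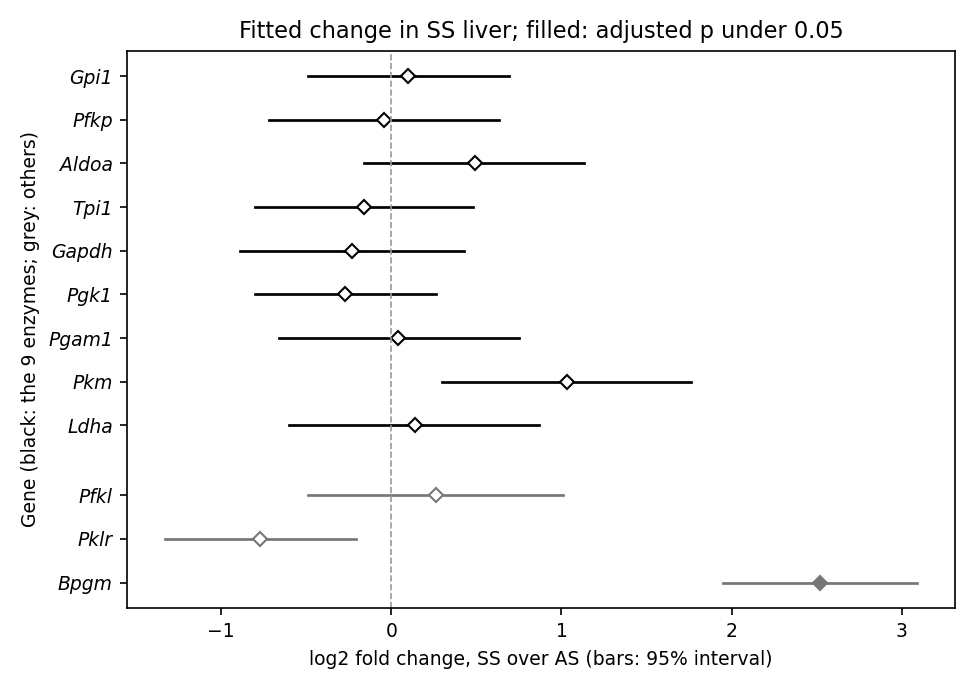
Fitted log2 fold change of SS over AS with its 95% interval for the 9 enzymes (black), the hepatocyte isozymes Pfkl and Pklr and the red cell enzyme Bpgm (grey). A filled diamond marks an edgeR adjusted p under 0.05, which only Bpgm of these 12 genes reached (log2 change 2.52).

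The intervals give the range around each fitted change and are not adjusted for the number of genes tested, as the calls are. With Pkm aside, the 95% intervals of the 8 other tested members ran from a log2 change of -0.89 at the lowest to 1.13 at the highest. Each of those 8 intervals included 0.

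Per kilobase of annotated exon, Ldha had the highest level of the members in every library, at 203 to 424 CPM per kb. Pgk1 (112 to 155 CPM per kb) and Tpi1 (93.9 to 179 CPM per kb) came next and overlapped each other. Pgam1 (26.8 to 67.4), Aldoa (28.2 to 64.8), Gpi1 (23.0 to 38.1) and Gapdh (13.0 to 27.8 CPM per kb) followed with overlapping ranges. Pkm was at 6.51 to 20.9 CPM per kb and Pfkp at 0.659 to 0.945 CPM per kb.

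At the pyruvate kinase step the hepatocyte isozyme was fitted lower in SS, though it did not pass the test. Pklr, which HNF and carbohydrate-sensing factors drive in hepatocytes, had 47.6, 57.9 and 66.9 CPM in SS, against 76.7, 111 and 106 CPM in AS. After TMM scaling every SS library was below every AS library (log2 change -0.77, SE 0.252, edgeR adjusted p = 0.241). Groups were apart with SS below in 9.04% of all genes tested under the same scaling. As a share of gene reads the groups overlapped, with 855 of 10589220 in SS replicate 3 and 666 of 10424592 in AS replicate 1. With library totals the log2 change of Pklr was -0.50 (edgeR adjusted p = 0.385). Without AS replicate 1 and SS replicate 3, the most distant pair, Pklr was called lower (log2 change -1.04, edgeR adjusted p = 0.0137, in a fit that called 2.49% of all genes lower). That pair was picked from these same counts. It held the highest SS value and the lowest AS value of Pklr, so leaving it out widens the gap. Pfkl had 30.0, 72.4 and 34.4 CPM in SS and 42.8, 36.6 and 34.9 CPM in AS, with SS replicate 2 alone above the rest (log2 change 0.26, SE 0.338, edgeR adjusted p = 0.767).

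The ratio of the 2 isozymes within a library does not depend on how libraries are scaled. For every 100 reads of Pklr there were 84.0, 179.9 and 111 reads of Pkm in SS replicates 1, 2 and 3, against 52.1, 29.3 and 32.4 in AS replicates 1, 2 and 3. All SS libraries were higher than all AS libraries, and in SS replicates 2 and 3 Pkm reads outnumbered those of Pklr. The log2 ratio averaged 0.25 ± 0.557 in SS and -1.45 ± 0.444 in AS (SD, n = 3 each), a difference of 1.69. The two-sided exact permutation test gave p = 0.10, the smallest that 3 against 3 allows (0.15 adjusted over the 3 ratios computed). For every 100 reads of Pfkl there were 31.4, 16.3 and 31.7 reads of Pfkp in SS and 29.7, 31.9 and 25.4 in AS. These overlapped (difference -0.19 on the log2 scale, exact permutation p = 0.80), and the low value was SS replicate 2. Reads of Pklr can include its red cell form, which counts per gene do not separate. Reads are not divided by gene length here, so a ratio of reads is not a ratio of RNA molecules.

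**Figure D4:**
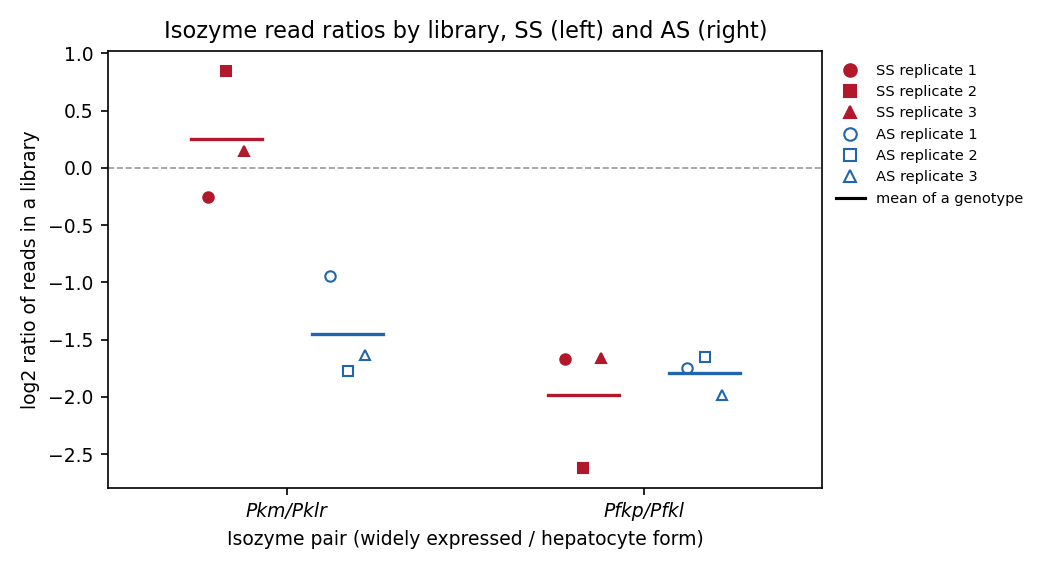
Log2 ratio of reads of the widely expressed to the hepatocyte isozyme in each library, for pyruvate kinase and phosphofructokinase, with SS left of AS, 1 point per library, a line at the mean of 3 and a dashed line at equal reads. SS libraries lie above AS libraries for Pkm/Pklr and overlap them for Pfkp/Pfkl.

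Pklr is the hepatocyte partner in the wider of those differences, so the bases around the inverted repeat before its second annotated start are shown, a repeat known from the rat gene as the carbohydrate response element. The repeat (CACGGG, any 5 bases, then CCCGTG, which reads the same on both strands) is in capitals, and it occurred in 1 of the 32817 windows of 250 bases, that of Pklr. The exact pattern was that of this known element, so a match at Pklr was foreseen. Looser forms of it were not searched, and the count does not show how common such elements are.
Pklr (GRCm38.p6, chr3:89136413-89136509, plus strand): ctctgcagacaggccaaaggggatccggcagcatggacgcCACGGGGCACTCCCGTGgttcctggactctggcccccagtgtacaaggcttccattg

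Around the enzymes, 1 of 54 tested genes in 6 lists of related functions rose and 0 fell in SS. Over all genes tested 0.911% rose and 0.0555% fell, shares that also stand beside the list counts below. The 1 that rose was Bpgm, which makes 2,3-bisphosphoglycerate, the regulator of oxygen release from hemoglobin, from a glycolytic intermediate and is most active in red cells. Bpgm had 111, 165 and 156 CPM in SS, against 23.3, 27.5 and 24.9 CPM in AS. The SS libraries were all several times higher than the AS libraries, by 2.52 on the log2 scale (SE 0.257, interval 1.95 to 3.09, adjusted p = 0.00193 in edgeR). Erythroid markers stood higher in the same libraries, as given above, and their part in it was not tested. Bpgm was the only call among the 10 tested other isozymes of these steps, whose median log2 change was 0.52, and Hkdc1, Pgk2, Pgam2, Eno2 and Ldhc held too few reads to test.

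In the list of hepatocyte isozymes and their controls, 0 of 7 were called, with a median of -0.09. Among 12 tested genes of glucose and lactate transport and flux control, 0 were called, with a median of 0.21. Slc16a3, which exports lactate from glycolytic cells, had the lowest p in that list. It had 1.58, 4.57 and 1.96 CPM in SS and 0.576, 0 and 0.491 CPM in AS, with a total of 11 AS reads (log2 change 2.80, SE 0.881, edgeR adjusted p = 0.214). Pfkfb2, an enzyme that sets the level of the phosphofructokinase activator fructose 2,6-bisphosphate, had 33.0, 18.2 and 95.7 CPM in SS and 10.6, 27.7 and 27.4 CPM in AS. Its log2 change of 1.16 (SE 0.569, edgeR adjusted p = 0.425) was 0.21 without SS replicate 3.

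Genes of glucose output and of the pentose branch did not pass the test. Of 7 tested gluconeogenic genes 0 were called, with a median of -0.25. G6pc, which releases glucose, had 256, 185 and 215 CPM in SS and 326, 295 and 311 CPM in AS. It was lower in every SS library after TMM scaling (log2 change -0.51, SE 0.247, edgeR adjusted p = 0.425). As a share of gene reads SS replicate 1 was above AS replicate 1 (1941 of 6971289 and 2830 of 10424592). With library totals the log2 change of G6pc was -0.22. Pck2, the mitochondrial carboxykinase, had 9.86 to 17.3 CPM in SS and 6.45 to 9.18 CPM in AS (log2 change 0.79, SE 0.344, edgeR adjusted p = 0.377). Leaving out SS replicate 2 gave 0.50 for it. Of 7 pentose phosphate genes 0 were called, with a median of -0.06. G6pdx, the first enzyme of that branch and a source of NADPH, had 8.31, 13.6 and 13.2 CPM in SS and 6.10, 4.83 and 5.07 CPM in AS, higher in every SS library (log2 change 1.13, SE 0.345, edgeR adjusted p = 0.195). Over all genes tested, groups were apart with SS above in 12.1% and with SS below, as for G6pc, in 9.04%. Rpia, which isomerises ribose phosphate, had a log2 change of 0.64 (SE 0.400).

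Hypoxia-inducible genes outside glycolysis gave 0 calls among 11 tested, with a median of 0.38. P4ha1, a collagen prolyl hydroxylase subunit, had the lowest p. It stood at 20.2, 17.9 and 29.2 CPM in SS, against 12.0, 8.38 and 11.0 CPM in AS, higher in every SS library (log2 change 1.10, SE 0.305, edgeR adjusted p = 0.154). Such a separation, with SS above, was found in 12.1% of all genes tested. Ddit4, an inhibitor of the growth kinase mTORC1 that hypoxia and other stresses induce, had 28.4, 52.6 and 152.5 CPM in SS and 40.1, 59.9 and 51.6 CPM in AS. SS replicate 3 stood alone above the rest, and the fitted log2 difference was 0.63 (interval -0.48 to 1.73, edgeR adjusted p = 0.618), or -0.32 without that library. Hif1a, the oxygen-sensitive subunit of HIF-1, had 23.5, 19.4 and 44.4 CPM in SS and 17.2, 22.6 and 25.0 CPM in AS. SS replicate 3 was the one library above the rest, and the log2 change of 0.43 (SE 0.344, edgeR adjusted p = 0.618) was -0.02 without it.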

How the data were processed

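Each liver sample came with its own file of deposited counts, whole reads per gene symbol. HISAT2, HTSeq and the build mm10 are named in the submitters' processing notes; versions, gene annotation and strand setting are not given in the sources used here. Genes overlapping on the opposite strand, as Fam57b does Aldoa and Hcn3 does Pklr, therefore cannot be told apart with certainty. The 5 counter lines were kept out of library sizes; they held 66.6% to 78.5% of records in SS libraries (highest in replicate 1) and 67.9% to 69.7% in AS libraries.

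Genes were filtered with filterByExpr (minimum count 10, minimum total 15), scaled by TMM and fitted with edgeR 4.0.16 (robust quasi-likelihood, R 4.3.3), SS over AS. SE and intervals of log2 changes derive from the F statistic. CPM uses the same factors. Isozyme ratios add 0.5 reads to each gene. The procedure was tested on simulated counts. Gene models are GENCODE M21, and exon lengths, windows of 50 bases and overlaps come from it. Alternatives included DESeq2 1.42.0 and limma-voom (limma 3.58.1). Named genes were all members, Pfkl and Pklr, the called genes of each list or else its 2 with the lowest p, and Hif1a. Epb42 was matched by its older symbol and Ahsp was not matched. Members, lists and tests were chosen with earlier results of these data known. Some results fixed for the report, 1 of the 3 isozyme ratios among them, are not reported here. Reads are not unique molecules.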

Additional observations from a re-analysis of the deposited data

How the results depend on the processing

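The number of the 10 enzyme genes called was 0 higher and 0 lower under all 18 alternatives, and the median log2 change of the 9 tested ran from -0.13 to 0.34, within the spread between libraries. The share of all genes called ran from 0.167% to 5.21%. Counts over all genes moved more: 188 higher and 29 lower with no filter, 367 and 93 with the replicate block, 360 and 93 by DESeq2, 30 and 1 by limma-voom, 31 and 0 with AS replicates 2 and 3 summed, and 346 and 316 without the distant pair (AS replicate 1, SS replicate 3), against 115 and 7. Upper-quartile factors gave 4 lower and library totals 1 lower. Leaving out 1 library gave 22 to 85 higher and 0 to 15 lower. Library totals shifted the median of all genes by 0.28 on the log2 scale, and the log2 changes then were 0.24 for Pfkp, 0.11 for Tpi1 and 0.05 for Gapdh, the opposite sign. Log2 changes nearer to 0 with library totals were -0.50 for Pklr, -0.22 for G6pc and -0.68 for Eno1b. Without the distant pair, picked from these same counts, related genes called were 3 higher and 5 lower, beside 2.72% and 2.49% of 12716 genes tested. Bpgm, Slc16a1 and Ndrg1 were higher, and Pklr, Slc2a2, Pdk1 and Pck1 were among the lower. In that fit log2 changes of opposite sign were 0.06 for Pfkp, 0.20 for Tpi1, -0.39 for Pgam1, -0.12 for Pfkfb2, -0.45 for Ddit4 and -0.16 for Hif1a. Pgam1 was -0.01 with median-ratio factors and by DESeq2, -0.05 with the block and -0.06 by limma-voom, Pfkp 0.00 by limma-voom, and Ldha -0.05 with the AS pair summed. Leave-one-out log2 changes ran from -0.19 to 0.06 for Pfkp, -0.36 to 0.02 for Tpi1, -0.34 to 0.31 for Pgam1, -0.07 to 0.56 for Ldha, -0.42 to 0.04 for Gapdh, -0.15 to 0.24 for Gpi1, -0.25 to 0.48 for Pfkl, -0.32 to 1.02 for Ddit4 and -0.02 to 0.65 for Hif1a. Leaving out 1 library, the isozyme differences ran from 1.39 to 1.95 for Pkm/Pklr (2.00 without the distant pair) and -0.35 to 0.13 for Pfkp/Pfkl, where 0.13 is without SS replicate 2. Same-numbered SS and AS libraries share only a number: their deviations correlated at 0.0497, -0.12 and 0.193, and SS replicate 2 correlated best with AS replicate 1 (0.241). With the replicate block Pkm had a log2 change of 0.94 (edgeR adjusted p = 0.0700), the isozyme differences had the same size (sign-flip exact p = 0.25 at the smallest), and Eno1b was called (-1.15, edgeR adjusted p = 0.0176). The cause of these shifts was not tested.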
